A study of Mus musculus with 10 samples.

Results

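Interferon response genes are genes whose transcription is switched on when a cell senses interferon. The 41 genes described here were chosen as a list of well-known interferon targets and consist of all probe sets of the array whose platform annotation names one of them and no other gene. Of the 41 genes, 39 have such a probe set, and 64 of the array's 45101 probe sets belong to them. Isg15 and Ifi44 have none that names only them and were not analysed here. The list was split for this work into 31 genes classed as targets mainly of type I interferon and 10 classed as targets mainly of type II interferon. With a probe set there were 29 type I and 10 type II genes.

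The study measured RNA labelled as that of osteoblasts, the cells that lay down bone, of young mice on 10 Affymetrix arrays. Of these, 3 are labelled as osteoblast-specific FoxO1 deletion, another 3 as osteoblast-specific constitutive expression of β-catenin, and 4 as wild type. They are called FoxO1 deleted 1 to 3, β-catenin active 1 to 3 and wild type 1 to 4 below, after the numbers in their labels. All mice were 2 to 3 days old, of the strain background written C5BL6, and no sex was determined. Neither the promoter behind each osteoblast-specific change nor any pooling or culture of cells is stated in the labels. The p-values therefore cover the spread among these arrays alone, part of which may be technical.

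Type I interferons, the interferon alphas and interferon beta, bind the receptor of Ifnar1 and Ifnar2 and act through the kinases Jak1 and Tyk2. A complex that holds Stat2 and Irf9 then binds the interferon-stimulated response element (ISRE). Type II interferon, encoded by Ifng, is made mainly by T and natural killer cells and signals through Ifngr1, Ifngr2, Jak1 and Jak2 to the gamma-activated site (GAS) of its target genes. Irf1, itself a target, also binds the ISRE, so the classes overlap: many type I targets respond to type II interferon as well, and the reverse. In bone, interferons are known to restrain osteoclast formation.

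The promoters of 5 members are shown so that the letters searched for can be seen in place. They are the 3 type I genes with an ISRE match and the 2 type II genes with a GAS match that had the widest signal range among the members given with all their values, so the motif was part of the choice. Each is the 250 bases before each gene's start in RefSeq, on mouse build GRCm38.p6, read 5′ to 3′ on the gene's strand. Capitals mark the ISRE core GAAANNGAA, searched on both strands, and the GAS core TTCNNNGAA, which reads alike on both strands. Positions count back from the start, with -1 for the last base shown. The ISRE matches of Ifit3, at chr19:34583279-34583528 on the plus strand, begin at -155, -121 and -102. For Bst2, at chr8:71537473-71537722 on the minus strand, a GAS at -136 overlaps an ISRE match at -130, which overlaps another at -124. Ifih1, at chr2:62646256-62646505 on the minus strand, has its ISRE at -112. In Igtp, at chr11:58199306-58199555 on the plus strand, a GAS at -45 lies close to an ISRE at -34. Psmb8, at chr17:34197945-34198194 on the plus strand, has a GAS at -97.
Ifit3: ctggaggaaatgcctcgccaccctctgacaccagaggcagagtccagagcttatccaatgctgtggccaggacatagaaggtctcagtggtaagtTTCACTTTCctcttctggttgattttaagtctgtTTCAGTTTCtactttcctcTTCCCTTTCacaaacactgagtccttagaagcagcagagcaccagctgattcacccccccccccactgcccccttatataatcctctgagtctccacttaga
Bst2: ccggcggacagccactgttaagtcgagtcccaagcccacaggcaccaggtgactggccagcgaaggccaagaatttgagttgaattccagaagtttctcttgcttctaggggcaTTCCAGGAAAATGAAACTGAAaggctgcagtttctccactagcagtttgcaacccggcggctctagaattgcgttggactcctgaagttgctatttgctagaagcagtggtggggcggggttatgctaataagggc
Ifih1: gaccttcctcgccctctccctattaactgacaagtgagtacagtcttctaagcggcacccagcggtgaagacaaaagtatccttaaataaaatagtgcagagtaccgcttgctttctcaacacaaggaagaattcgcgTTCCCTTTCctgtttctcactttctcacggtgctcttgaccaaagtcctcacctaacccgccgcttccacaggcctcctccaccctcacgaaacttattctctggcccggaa
Igtp: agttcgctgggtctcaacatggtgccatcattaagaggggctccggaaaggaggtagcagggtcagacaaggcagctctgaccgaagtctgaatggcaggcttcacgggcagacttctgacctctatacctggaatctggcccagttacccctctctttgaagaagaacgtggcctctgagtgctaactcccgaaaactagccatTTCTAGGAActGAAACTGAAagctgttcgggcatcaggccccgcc
Psmb8: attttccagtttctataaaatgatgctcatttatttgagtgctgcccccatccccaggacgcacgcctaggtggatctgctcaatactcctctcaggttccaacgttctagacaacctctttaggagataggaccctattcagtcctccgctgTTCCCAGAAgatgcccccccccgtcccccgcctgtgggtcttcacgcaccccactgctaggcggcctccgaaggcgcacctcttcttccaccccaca

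Promoters of 22 type I and 9 type II members were found in the RefSeq table. An ISRE match lay in 10 of the 22 type I promoters (45.5%) and 4 of the 9 type II promoters (44.4%), against 8.18% of all 27025 genes with a promoter. A GAS match lay in 4 of 22 type I promoters (18.2%) and 3 of 9 type II promoters (33.3%), against 8.13% of all genes. These matches are letters in a window and were not tested as binding sites.

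FoxO1 deleted 3 had the highest signal of the 10 arrays for 36 of the 39 genes, by at least 1 log2 unit for 34 of them. The other 9 arrays spanned less than 1 log2 unit for 25 of the 39. Over all 18194 genes with a probe set, the same array was highest for 12.4% and highest by at least 1 log2 unit for 1.09%. FoxO1 deleted 3 was already known to stand apart when the list was drawn up, so these counts describe that array and are not a test of FoxO1 deletion. For the median gene of the list its signal was 3.29 log2 units (9.78-fold) above the median of the other 9 arrays, against -0.07 for the median of all genes.

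**Figure D1:**
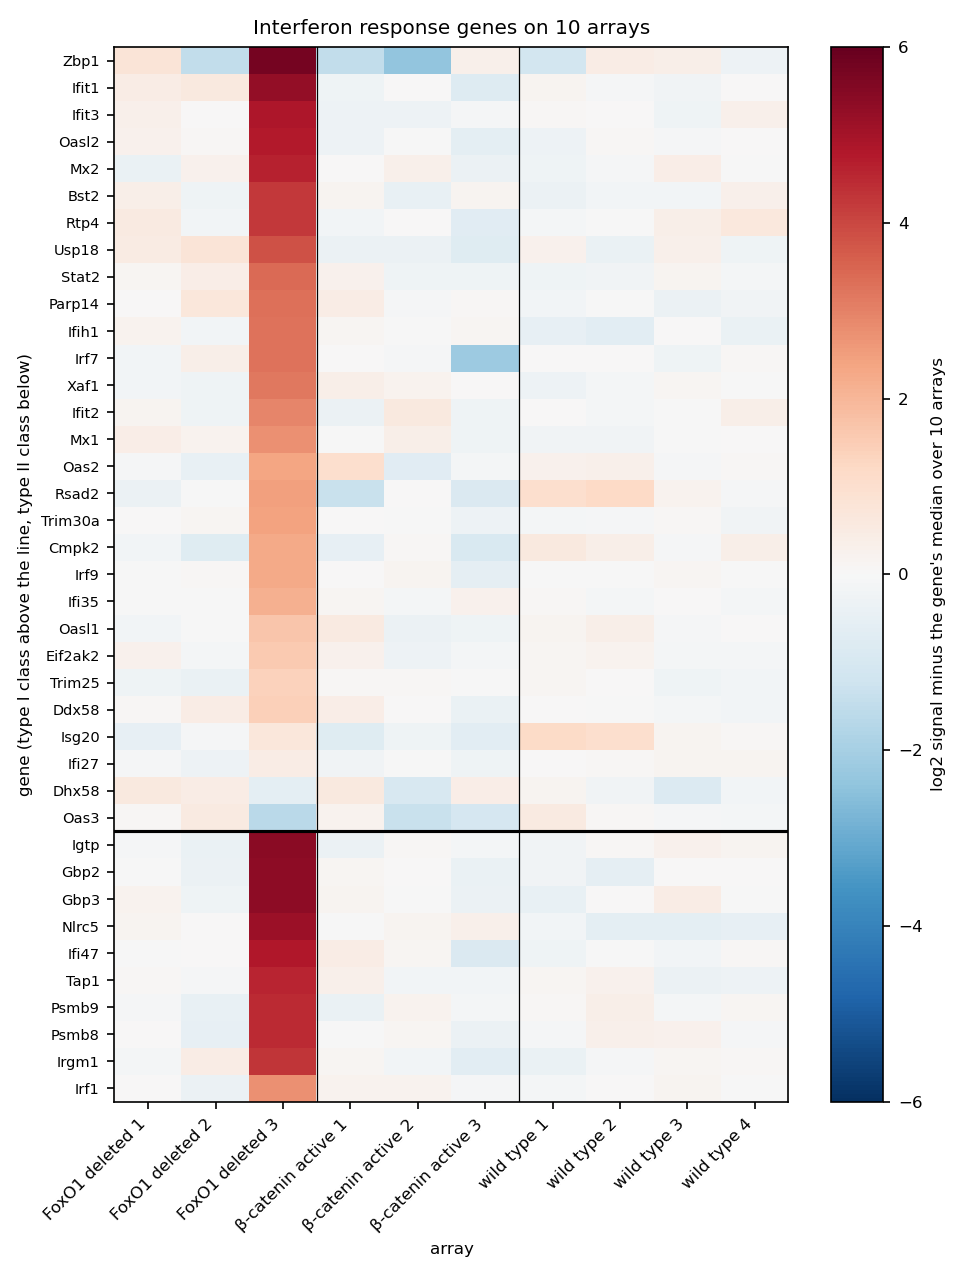
Log2 signal of each of 39 interferon response genes (rows) on each of 10 arrays (columns), as the difference from the gene's median over the 10 arrays (colour, from -6 to 6). FoxO1 deleted 3 holds the highest value of 36 of 39 rows, and the other 9 columns are pale for most genes.

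All values are log2 signal as deposited. The median of the whole table is 7.15 and serves as the line below which a signal is called low. Because each probe set binds with its own strength, levels are compared between arrays and not between genes. FoxO1 deleted 3 stood apart from the 2 other arrays of its label, since those labelled FoxO1 deleted 1 and 2 had levels close to wild type. Over the 39 genes, the mean of these 2 arrays minus the wild-type mean had a median of 0.025 and a range of -0.875 to 0.77, and no gene differed by 1 log2 unit or more.

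The transcription factors of the response were among the genes high in FoxO1 deleted 3. Stat2, a subunit of the type I complex, had 6.81, 7.09 and 10.11 on the FoxO1-deleted arrays, 6.97, 6.47 and 6.47 on the β-catenin-active arrays and 6.47, 6.5, 6.90 and 6.62 in wild type. Irf9, which gives that complex its DNA binding, had 8.64, 8.73 and 10.96 on the FoxO1-deleted arrays, 8.71, 8.85 and 8.14 on the β-catenin-active arrays and 8.65, 8.65, 8.80 and 8.64 in wild type. FoxO1 deleted 3 was the only array above 9 for Irf9 and above 8 for Stat2. Irf7, which amplifies the type I response, had 6.84, 7.35 and 10.27 on the FoxO1-deleted arrays, 7.04, 6.95 and 4.83 on the β-catenin-active arrays and 7.01, 7.01, 6.75 and 7.06 in wild type. Irf1, the factor most directly induced by type II interferon, had 9.38, 9.04 and 12.12 on the FoxO1-deleted arrays, 9.57, 9.60 and 9.29 on the β-catenin-active arrays and 9.28, 9.38, 9.55 and 9.35 in wild type.

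Ifit3 and its neighbour Ifit2 encode antiviral proteins with tetratricopeptide repeats, and the Ifit3 promoter above holds 3 ISRE matches. Ifit3 had 7.81, 7.50 and 12.33 on the FoxO1-deleted arrays, 7.20, 7.18 and 7.44 on the β-catenin-active arrays and 7.55, 7.50, 7.24 and 7.80 in wild type. Ifit2 had 7.75, 7.35 and 10.51 on the FoxO1-deleted arrays, 7.21, 8.17 and 7.35 on the β-catenin-active arrays and 7.59, 7.48, 7.58 and 7.93 in wild type. For both, FoxO1 deleted 3 lay above every other array, and FoxO1 deleted 1 and 2 overlapped wild type. Its Ifit3 signal was 28.4-fold the median of the other 9 arrays. Ifit1, whose signal was at most 6.73 on the other 9 arrays, had 11.43 on FoxO1 deleted 3.

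Other type I effectors showed the same array. Bst2, or tetherin, holds budding virus at the cell surface and had 8.78, 8.14 and 12.65 on the FoxO1-deleted arrays, 8.56, 7.96 and 8.59 on the β-catenin-active arrays and 8.07, 8.23, 8.27 and 8.72 in wild type. Rtp4 encodes a receptor transporter protein and had 9.20, 8.5 and 12.90 on the FoxO1-deleted arrays, 8.49, 8.66 and 7.97 on the β-catenin-active arrays and 8.52, 8.64, 9.0 and 9.30 in wild type. The other 9 arrays spanned 7.96 to 8.78 for Bst2 and 7.97 to 9.30 for Rtp4, with the genotypes overlapping. Xaf1, an antagonist of inhibitors of apoptosis, had 8.62, 8.52 and 11.97 on the FoxO1-deleted arrays, 9.15, 9.01 and 8.81 on the β-catenin-active arrays and 8.5, 8.66, 8.91 and 8.76 in wild type. The largest gap in the type I class belonged to Zbp1, a sensor of Z-form nucleic acid, with 10.41 on FoxO1 deleted 3 and 2.31 to 5.48 on the other 9 arrays.

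Ifih1, or MDA5, is a sensor of RNA in the cytosol that interferon itself induces. Its signal was 3.05 log2 units above the next array on FoxO1 deleted 3. It had 8.26, 7.86 and 11.31 on the FoxO1-deleted arrays, 8.14, 8.02 and 8.13 on the β-catenin-active arrays and 7.55, 7.39, 8.04 and 7.63 in wild type. Parp14, an ADP-ribosyltransferase, had 7.60, 8.22 and 10.84 on the FoxO1-deleted arrays, 7.99, 7.49 and 7.62 on the β-catenin-active arrays and 7.41, 7.51, 7.19 and 7.35 in wild type. Parp14 was one of 2 tested members, with the RNA sensor Ddx58 (RIG-I), for which all 3 FoxO1-deleted arrays lay above all wild-type arrays. That is 2 of 26 tested members, against 4.59% of all 11357 genes tested. The share over all genes is not a like baseline, since FoxO1 deleted 3 was the highest array for 25 of the 26. For those 25, only FoxO1 deleted 1 and 2 decided whether the arrays overlapped wild type.

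The remaining type I members, given by FoxO1 deleted 3 and the range of the other 9 arrays, included restriction factors and enzymes. Mx1, a GTPase gene, had 9.30 on FoxO1 deleted 3 and 6.27 to 6.95 on the others, and Mx2 had 7.88 and 2.87 to 3.65. Oas2, an oligoadenylate synthetase, had 8.52 on FoxO1 deleted 3 and 5.46 to 7.16 on the others. Of its relatives, Oasl2 had 11.33 on FoxO1 deleted 3 and 6.03 to 6.84 on the others, and Oasl1 had 8.03 and 6.04 to 6.91. All 5 genes were thus highest on FoxO1 deleted 3, with no overlap. Usp18, which removes Isg15 from proteins and dampens the receptor, had 9.91 on FoxO1 deleted 3 and 5.40 to 6.88 on the others. Eif2ak2, the kinase PKR that halts translation on double-stranded RNA, had 10.70 and 8.84 to 9.40. Ddx58 had 9.86 on FoxO1 deleted 3 and 8.04 to 8.89 on the others. These 3 genes were likewise highest on FoxO1 deleted 3. Trim25, the ubiquitin ligase that acts on RIG-I, had 11.71 on FoxO1 deleted 3 and 9.91 to 10.45 on the others, and Trim30a had 10.31 and 7.60 to 8.0. Ifi35 had 12.30 on FoxO1 deleted 3 and 10.05 to 10.41 on the others. The narrowest of these gaps was that of Ifi27, with 11.14 on FoxO1 deleted 3 and 10.40 to 10.87 on the others.

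The type II class held the widest gaps at its median. Its interferon-inducible GTPases act against pathogens inside cells. Gbp2 had 8.0, 7.66 and 13.40 on the FoxO1-deleted arrays, 8.15, 8.05 and 7.60 on the β-catenin-active arrays and 7.81, 7.45, 8.02 and 8.02 in wild type. Igtp had 8.94, 8.61 and 14.44 on the FoxO1-deleted arrays, 8.66, 9.12 and 8.93 on the β-catenin-active arrays and 8.83, 9.12, 9.29 and 9.18 in wild type. FoxO1 deleted 3 was thus 42.2-fold above the median of the other 9 arrays for Gbp2 and 45.3-fold for Igtp, with no overlap. Gbp3 had 8.04, 7.58 and 13.19 on the FoxO1-deleted arrays, 7.99, 7.79 and 7.47 on the β-catenin-active arrays and 7.40, 7.85, 8.26 and 7.80 in wild type. Ifi47 had 7.74, 7.80 and 12.60 on the FoxO1-deleted arrays, 8.20, 7.90 and 6.92 on the β-catenin-active arrays and 7.54, 7.75, 7.62 and 7.86 in wild type. Guanylate-binding proteins, and the GTPases to which Igtp, Ifi47 and Irgm1 belong, are families of similar sequence, so signal shared between their members cannot be told apart on this array.

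The immunoproteasome and peptide transport genes, which prepare peptides for MHC class I, were high on the same array. Psmb8, a subunit that replaces a constitutive one in the immunoproteasome, had 7.62, 7.12 and 12.08 on the FoxO1-deleted arrays, 7.59, 7.72 and 7.27 on the β-catenin-active arrays and 7.54, 7.92, 7.88 and 7.55 in wild type. Psmb9, Tap1 and Psmb8 neighbour each other in the genome, and Psmb9 and Tap1 had 11.69 and 12.55 on FoxO1 deleted 3 with at most 7.56 and 8.26 on the other 9 arrays. Nlrc5, the transactivator of MHC class I genes, had 11.49 on FoxO1 deleted 3 and at most 6.69 elsewhere. Neighbours are common in the list, since 11 of the members sit in 5 runs with no other protein-coding gene between them, so they are not independent of each other in position.

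**Figure D2:**
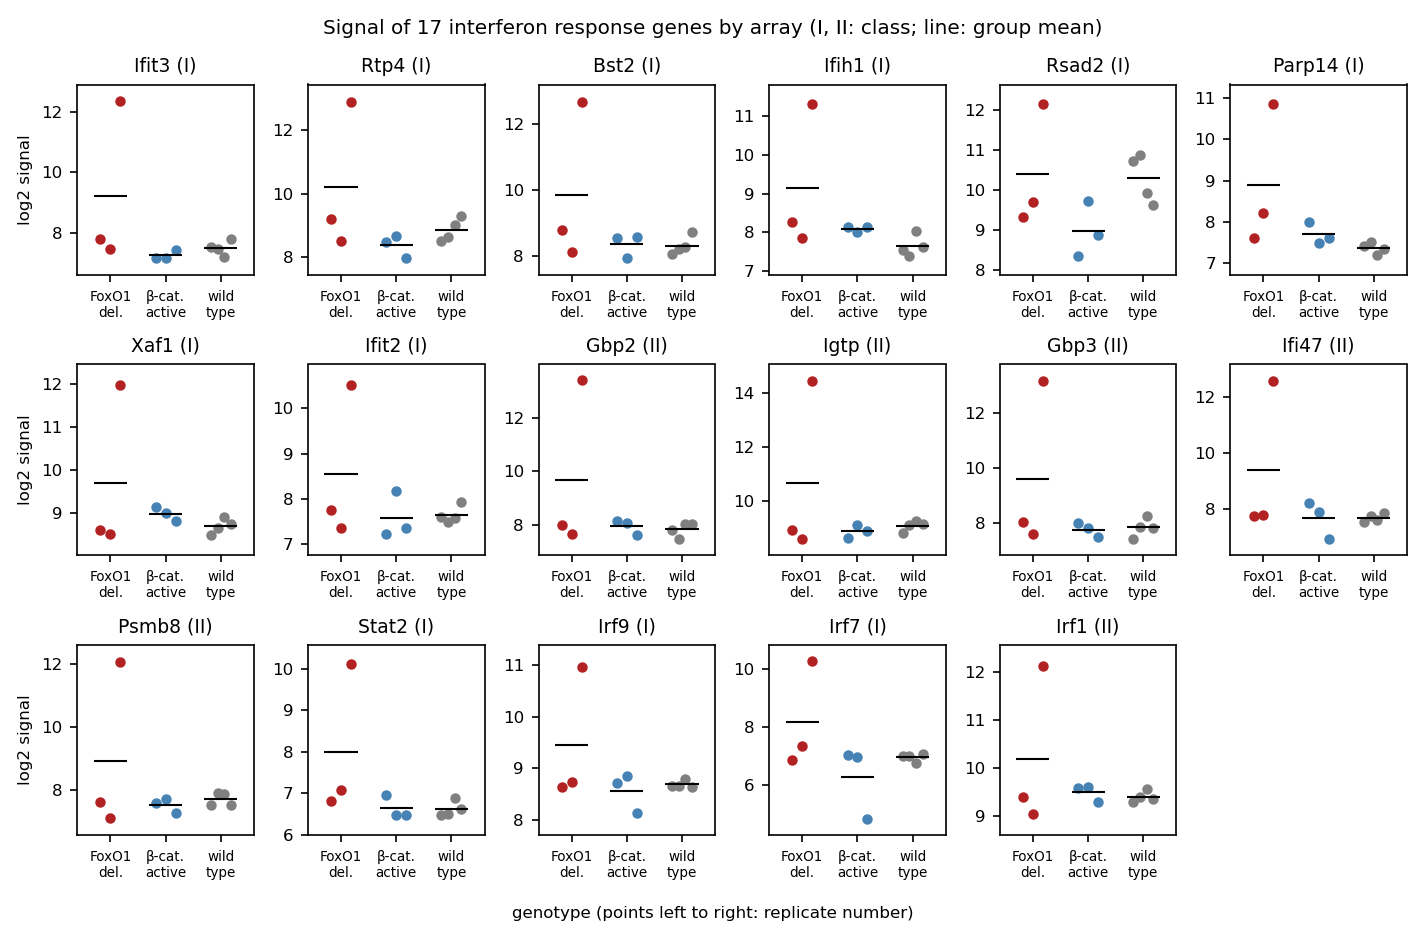
Log2 signal (vertical axis, own scale per panel) of 17 interferon response genes in FoxO1-deleted, β-catenin-active and wild-type arrays, 1 point per array in order of replicate number and a line at the group mean. FoxO1 deleted 3 is the top point of each panel, and the wild-type points of Rsad2 spread from 9.63 to 10.89.

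Genes of both classes were high in FoxO1 deleted 3, and within this list those of the type II class by more. The difference of FoxO1 deleted 3 from the median of the other 9 arrays had a median of 4.76 log2 units (27.0-fold) over the 10 type II genes, with a range of 2.74 to 5.5. Over the 29 type I genes the median was 2.77 (6.82-fold), with a range of -1.67 to 6.04. All 10 type II genes and 26 of 29 type I genes were highest in that array. Of the 29 type I genes, 15 reached the lowest type II difference and 4 reached the type II median, so the classes overlapped. Among genes whose other 9 arrays had a median above 7.15, the median difference was 4.76 for 8 type II genes and 2.42 for 17 type I genes. Over the 12 type I genes whose other 9 arrays had a median below 7.15, it was wider, at 3.375. Over further targets outside the list, given below, the medians lay closer together, at 2.28 for 27 type II and 2.08 for 39 type I genes. The difference between the classes was not tested, since both come from the same single array.

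A score per array gives the same order. It is the mean, over the tested members, of each gene's deviation from its own mean over the 10 arrays. On FoxO1 deleted 3 the score was 4.20 for 9 type II genes and 2.30 for 17 type I genes. On the other 9 arrays it ran from -0.747 to -0.337 for type II and from -0.490 to -0.138 for type I. β-catenin active 3 had the lowest score in both classes. The genes not tested, and so left out of the score, were 12 of type I and 1 of type II. With them, the score of FoxO1 deleted 3 was 4.255 for 10 type II genes and 2.48 for 29 type I genes.

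The 3 type I members below were not highest in FoxO1 deleted 3. Oas3, of the oligoadenylate synthetases, had 4.26 there and 4.52 to 6.43 on the other 9 arrays, all below 7.15. The probe set that stands for Dhx58, the sensor LGP2, had 4.82 there and 4.44 to 5.97 elsewhere, while another of its probe sets had 9.10 there and at most 5.86 elsewhere. Isg20, an exonuclease that degrades viral RNA, had 6.97, 7.35 and 8.11 on the FoxO1-deleted arrays, 6.73, 7.20 and 6.79 on the β-catenin-active arrays and 8.58, 8.43, 7.60 and 7.53 in wild type.

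Isg20 and a pair of other type I genes, picked after their values were seen, had a second pattern. Rsad2, or viperin, an antiviral radical SAM enzyme, had 9.34, 9.71 and 12.16 on the FoxO1-deleted arrays, 8.36, 9.72 and 8.87 on the β-catenin-active arrays and 10.74, 10.89, 9.93 and 9.63 in wild type. Its neighbour Cmpk2, a mitochondrial nucleotide kinase, had 7.15, 6.55 and 9.56 on the FoxO1-deleted arrays, 6.80, 7.35 and 6.38 on the β-catenin-active arrays and 7.89, 7.66, 7.24 and 7.64 in wild type. Both were highest in FoxO1 deleted 3, and apart from that array the wild-type values were the upper ones, with some overlap. These 3 genes also had the lowest means of FoxO1 deleted 1 and 2 relative to wild type, at -0.875 for Isg20, -0.773 for Rsad2 and -0.758 for Cmpk2. The summed signal of neutrophil markers was 1301 to 9993 on the FoxO1-deleted arrays, 2688 to 3748 on the β-catenin-active arrays and 13410 to 29180 in wild type, and its part in this pattern was not tested.

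The comparison of FoxO1-deleted with wild-type arrays asks what loss of FoxO1 does to the osteoblast. Each of the 11357 genes with enough signal was tested with limma, and a gene was called at a Benjamini-Hochberg adjusted p under 0.05. Of the members, 26 were tested, 17 of type I and 9 of type II. The other 13 had too few arrays above 7.15, and 11 of them passed that level in FoxO1 deleted 3. None of the 26 passed, against 3 of 11357 genes (0.0264%), and 3 had an unadjusted p under 0.05, against 7.83% of all genes. The median log2 difference over the 26 members was 1.1, with 24 above 0, and the median over all genes tested was 0.

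The FoxO1-deleted arrays spread widely for the members of widest range. Ifit3 averaged 9.21 ± 2.70 on the FoxO1-deleted arrays and 7.52 ± 0.23 in wild type (SD, n = 3 and 4), a log2 difference of 1.69 ± 0.89 (SE) with a limma adjusted p of 0.654. Gbp2 averaged 9.69 ± 3.22 on the FoxO1-deleted arrays and 7.83 ± 0.27 in wild type, a difference of 1.86 ± 1.06 with a limma adjusted p of 0.675. Both differences were smaller than the SD of the FoxO1-deleted arrays. The smallest adjusted p among members, 0.590, belonged to Parp14, whose difference was 1.52 ± 0.58. Irf9, with 0.76 ± 0.45, and Irf1, with 0.79 ± 0.56, had limma adjusted p of 0.689 and 0.749.

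Leaving out FoxO1 deleted 3 brought the median near 0. The median difference over the 26 members became -0.0075 in place of 1.1, and again none passed, while 5 had an unadjusted p under 0.05, against 7.04% of all genes. Of these 5, Isg20, Cmpk2, Ifi27 and Trim25 were lower and Parp14 was higher on the 2 FoxO1-deleted arrays. None passed either when another FoxO1-deleted array was left out, and the number with an unadjusted p under 0.05 was then 14 without FoxO1 deleted 1, against 9.18% of all genes, and 21 without FoxO1 deleted 2, against 11% of all genes. With FoxO1 deleted 3 left out, Ifit3 differed by 0.13 ± 0.21 and Gbp2 by 0.0050 ± 0.23 on the log2 scale. Without FoxO1 deleted 3, Parp14 had the highest difference of any tested member, 0.55 ± 0.23 with a limma adjusted p of 0.691.

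**Figure D3:**
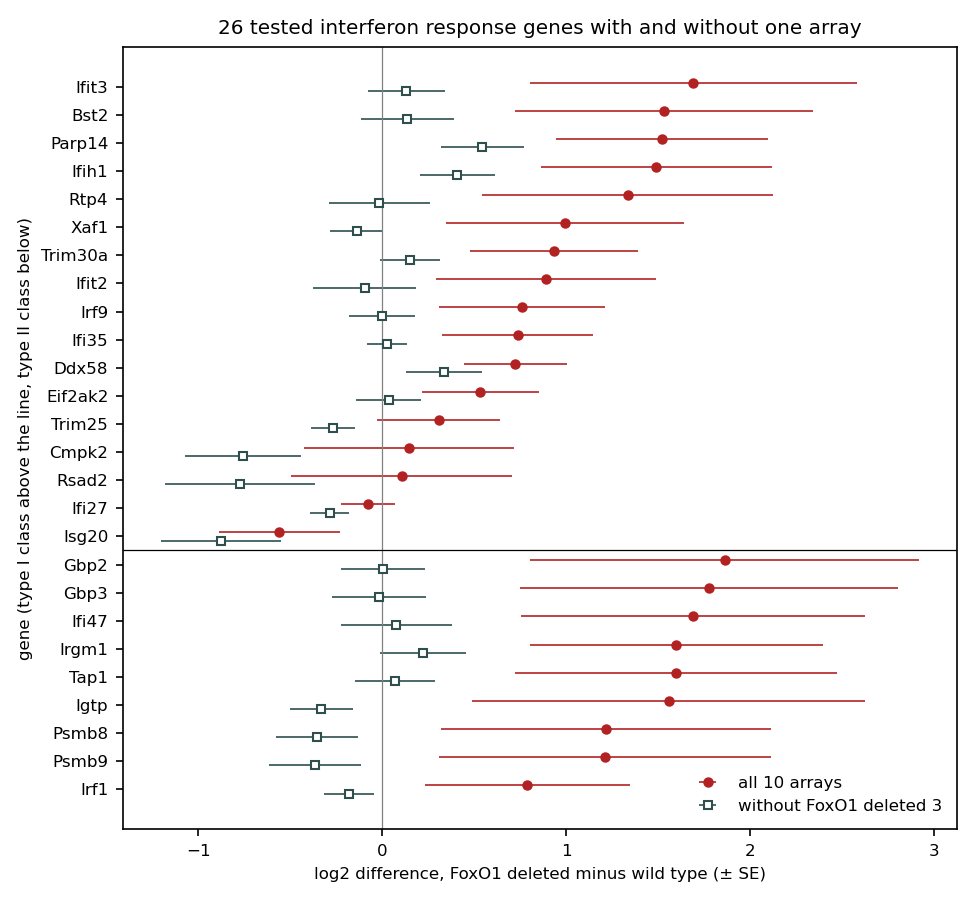
Log2 difference of FoxO1-deleted minus wild-type arrays (horizontal axis, ± SE) for the 26 tested members, with all 10 arrays (filled) and without FoxO1 deleted 3 (open). The filled points have a median of 1.1 and the open points lie around 0, at a median of -0.0075.

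The comparison of β-catenin-active with wild-type arrays asks what constitutive β-catenin does to the osteoblast. None of the 26 passed, against 89 of 11357 genes (0.784%), and 1 had an unadjusted p under 0.05, against 12.1% of all genes. The spread in this fit includes that of FoxO1 deleted 3, an array of neither genotype compared here. Without that array none passed and 5 had an unadjusted p under 0.05, against 14.2% of all genes, and with only the arrays of these 2 genotypes it was again 5, against 14.6% of all genes. The median difference was -0.07, with 10 members above 0 and 16 below. Isg20 and Ifi27, 2 members, were lower on all 3 β-catenin-active arrays than on all wild-type arrays, against 6.76% of all genes, which is close to the share of 2 in 26. Isg20 averaged 6.91 ± 0.26 on the β-catenin-active arrays and 8.04 ± 0.55 in wild type, a difference of -1.13 ± 0.33 with a limma adjusted p of 0.165. Rsad2 averaged 8.98 ± 0.69 on the β-catenin-active arrays and 10.30 ± 0.61 in wild type, a difference of -1.31 ± 0.60 with a limma adjusted p of 0.415. Neutrophil markers were lower in the same comparison, with all 7 tested below wild type on every β-catenin-active array, a median of -2.55 and 1 past the threshold, and the 5 erythroid markers tested had a median of -2.07 and none past it. Their part in the lower Isg20 and Rsad2 signal was not tested.

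β-catenin-active and FoxO1-deleted arrays were compared as well, and this comparison shares its arrays with both others. No member passed, against 76 of 11357 genes (0.669%), and 1 had an unadjusted p under 0.05, against 8.03% of all genes. All 26 differences were below 0, with a median of -1.12, and the median was -0.033 without FoxO1 deleted 3. Ifit3 and Trim30a, 2 of 26 members, were lower on all 3 β-catenin-active arrays than on all FoxO1-deleted arrays, against 4.16% of all genes. No member was higher on all of them, against 5.39% of all genes. FoxO1 deleted 3 fixed that outcome, since it lay above every β-catenin-active array for Isg20 and was the highest array for the other 25. For the same reason, neither share over all genes is a like baseline for these members. Gbp2 averaged 7.93 ± 0.29 on the β-catenin-active arrays and 9.69 ± 3.22 on the FoxO1-deleted arrays, a difference of -1.75 ± 1.13 with a limma adjusted p of 0.777.

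The other genes of the pathway were read from lists of interferons, receptors and their kinases, transcription factors, nucleic acid sensors, inhibitors and further targets. None passed in FoxO1-deleted against wild-type arrays, of 1 interferon, 8 receptors and kinases, 5 factors, 10 sensors, 9 inhibitors, 28 further type I targets and 22 further type II targets tested. The genes of smallest p in these lists had adjusted p-values of 0.555 (Ikbke, a kinase of the sensing pathway, with a difference of 0.60 ± 0.21) to 0.749 (Ifnz). Among the further targets these were Trim21, with 0.94 ± 0.35 and a limma adjusted p of 0.590, and Gbp6, with 2.29 ± 0.93 and 0.627. Others of smallest p were Irf2, Stat3, Ptpn11, Pias1, Tyk2, Jak2, Rnaseh2b, Pml and Wars, with differences of -0.19 to 0.98. Of 8 interferon genes with a probe set, 7 lay below 7.15 on every array. The other, Ifnz, had 8.85 on FoxO1 deleted 3, within the 8.30 to 8.99 of the other 9. Ifng had 5.26 on FoxO1 deleted 3 and -0.23 to 2.53 on the other 9 arrays. Ifnb1, interferon beta, had 5.26 on FoxO1 deleted 3, within the 4.97 to 6.27 of the other 9. Receptor signal was present on every array: Ifngr1 had 11.07 on FoxO1 deleted 3 and 10.81 to 11.19 on the others, and Ifnar1 had 9.89 and 9.85 to 10.20. Ifnar2 had 11.28 on that array and 10.33 to 10.69 on the others.

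Some further targets had gaps as wide as the members'. Cxcl9, a chemokine that draws activated T cells, had 12.73 on FoxO1 deleted 3 with 1 probe set and 1.68 to 2.93 elsewhere, and 10.65 on FoxO1 deleted 3 with the other and 1.71 to 5.98 elsewhere. Iigp1, a GTPase, had 14.55 on FoxO1 deleted 3 and 7.94 to 8.80 elsewhere, and Gbp6 had 13.76 and 7.59 to 8.95. Ciita, the master regulator of MHC class II genes, had 7.24 on FoxO1 deleted 3 and 4.02 to 6.43 on the others, and Cxcl10, a chemokine induced by both interferon types, had 10.83 and 5.77 to 6.74. Cxcl9 and Iigp1 were singled out after their values were seen. The median difference of FoxO1 deleted 3 from the other 9 arrays was 2.28 over 27 further type II targets and 2.08 over 39 further type I targets. Over 9 receptors and kinases it was 0.13, over 10 inhibitors 0.095 and over 14 sensors 0.345. Of 7 transcription factors, 2 were above every other array by at least 1 log2 unit. Irf8, a factor of macrophages that type II interferon induces, had 9.59 on FoxO1 deleted 3 and 6.90 to 7.60 elsewhere, and Batf2 had 8.58 and 4.75 to 6.52.

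**Figure D4:**
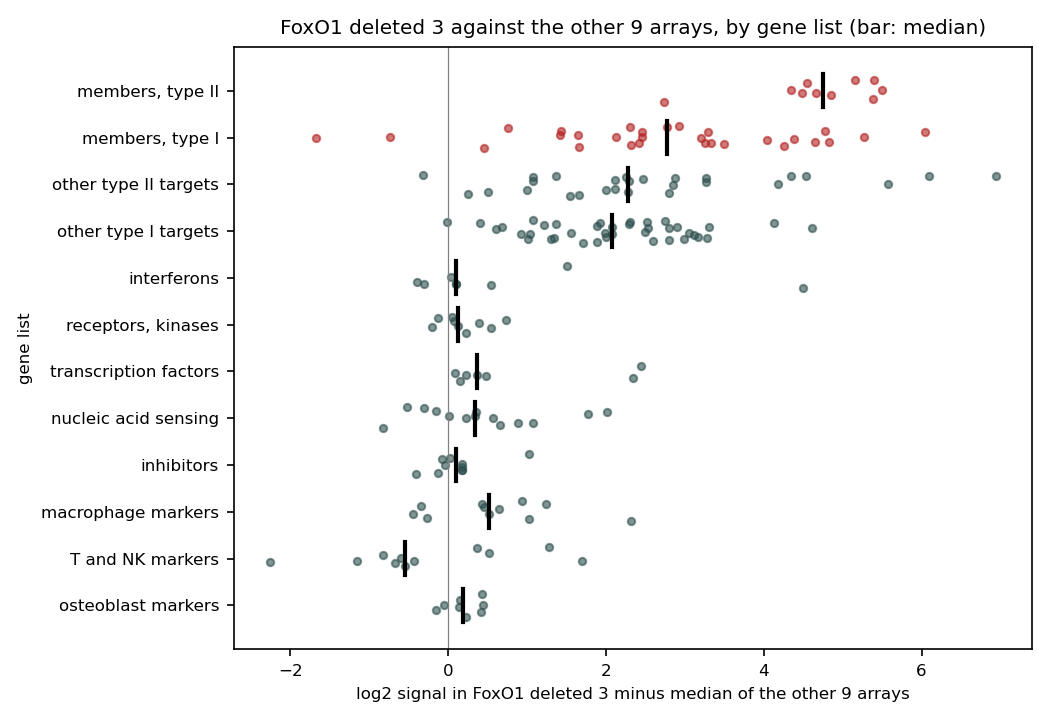
Log2 signal in FoxO1 deleted 3 minus the median of the other 9 arrays (horizontal axis) for each gene of 12 lists (rows, 1 point per gene, bar at the median). The member lists have medians of 4.76 (type II) and 2.77 (type I), and receptors and osteoblast markers lie near 0.

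The labelled tissue and other cell types were read from marker lists, since RNA of other cells in the sample could move with the members. Osteoblast markers were high on every array, with a summed linear signal of 229700 on FoxO1 deleted 3 and 173500 to 207500 on the others. Of 8 such markers, 4 were highest on FoxO1 deleted 3, against 15.25% of all genes whose other 9 arrays had a median above 7.15. Among these 4, Sparc had 15.86 on FoxO1 deleted 3 and 15.30 to 15.72 elsewhere. Dmp1, a marker of the most mature cells of the lineage, had 14.96 and 14.27 to 14.68. Ibsp and Alpl were not highest there. Ibsp had 14.61 on FoxO1 deleted 3 and 14.59 to 14.95 elsewhere, and Alpl had 12.12 and 11.92 to 12.65. None of the 11 T and natural killer cell markers passed 7.15 on any array, and their summed signal was 392 on FoxO1 deleted 3 and 287 to 520 on the others. Macrophage markers were present on every array. Of 11, 5 were highest in FoxO1 deleted 3, against the same 15.25% of all genes. Among the 5 was Aif1, with 10.23 there and at most 8.31 elsewhere. Csf1r, the receptor that keeps macrophages alive, had 13.17 and 13.04 to 13.58. Their summed signal of 28290 on FoxO1 deleted 3 was within the 17800 to 28630 of the other arrays. Neutrophil markers summed to 5993 on FoxO1 deleted 3 and 1301 to 29180 on the others. The sums of B-cell, erythroid, endothelial, muscle, chondrocyte and osteoclast markers on FoxO1 deleted 3 lay within the range of the other 9 arrays, and that of dendritic cell markers, 487.5, lay below their 560.7 to 665.4. Muscle and osteoclast signal was high on every array, so the RNA cannot be taken as that of osteoblasts alone. Acta1, of muscle, had 14.96 on FoxO1 deleted 3 and 14.26 to 15.16 on the others. Ctsk, of osteoclasts, had 14.69 and 14.17 to 14.70. The part of these cells in the members' signal was not tested, and in RNA of a bulk sample more cells of a type and more RNA per cell cannot be told apart.

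Array quality was read in the same way. The Actb 3′ minus 5′ signal, which grows as RNA degrades, was 0.99 on FoxO1 deleted 3 and 0.60 to 0.88 on the other 9 arrays. FoxO1 deleted 3 also had the lowest mean correlation with the other arrays, 0.925 against 0.932 to 0.940 for the others. Xist, expressed in female cells, was high in 4 arrays, FoxO1 deleted 2 and 3 and wild type 3 and 4, and the member score of the other 3 of these was within the range of the remaining arrays. The probe set that stands for Foxo1, the gene labelled as deleted, had 9.67 to 10.13 on the FoxO1-deleted arrays and 9.93 to 10.09 in wild type. That is a difference of -0.17 ± 0.11 with a limma adjusted p of 0.706. Other kept probe sets of Foxo1 averaged 9.14 and 8.19 on the FoxO1-deleted arrays and 9.09 and 8.09 in wild type. Where its probe sets lie relative to the deleted part is not given, so this signal does not check the label, and the genotype is given throughout as labelled. What moved the members on 1 array, and whether FoxO1 has any part in it, was not tested.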

How the data were processed

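Total RNA of 10 mouse osteoblast samples was hybridised to Affymetrix arrays of 45101 probe sets. The deposited values are log2 signal from MAS5, which the submitters' processing notes list with no version. The authors' scaling shows as a 2% trimmed mean of 500 on each array, so no further normalization was applied. Of the probe sets, 34958 name 1 gene in the platform annotation, 932 several and 9211 none. A probe set was kept if its third-highest value passed the table median of 7.15, and the kept probe set of highest mean stood for each of 11357 genes. For counts over 18194 genes no filter was set. All 10 arrays entered 1 limma 3.58.1 fit (R 4.3.3, eBayes with a trend), two-sided, with 7 residual degrees of freedom and the fit was tested on simulated data. The number of arrays limits the precision.

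The members, their classes, the pathway and marker lists and the settings were chosen with earlier results of these data known. The members named are the 8 type I and 5 type II tested genes of widest range over the 10 arrays, with Stat2, Irf9, Irf7, Irf1 and any member past the threshold. Others named were picked after their values were seen. Pathway genes were Ifnb1, Ifng, Ciita, Cxcl10 and those of smallest p. The promoters are those of RefSeq, build GRCm38.p6.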

Additional observations from a re-analysis of the deposited data

Results flagged for a closer look

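In the wild-type group, 1 array stood apart from the other 3 in 2 genes, by a gap that took up most of the group's range. Irf9 had 8.80 in wild type 3 against 8.64 to 8.65 on the other 3, and Irf7 had 6.75 in wild type 3 against 7.01 to 7.06. Both gaps are small in log2 units. Chance flags about 1 in 20 groups, and 42 were looked at.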

How the results depend on the processing

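The count of members past the threshold stayed at 0 in each of the 3 comparisons under every alternative run, which were no filter and a stricter one, median and quantile scaling, the mean of a gene's probe sets or each of them, 16 added on the linear scale, fits of only 2 groups, array weights, a replicate block, no variance trend, averaged wild-type pairs, a Xist term and leaving out each array. The median member difference of FoxO1-deleted minus wild-type arrays, 1.1, was 1.22 with no filter, 0.79 with a stricter filter, 0.841 over every kept probe set, 0.371 with array weights, 0.97 with a Xist term and 1.48 among the arrays of high Xist signal. It ran from -0.0075 to 1.72 as each array was left out. For β-catenin-active minus wild-type arrays it was 0.411 with a Xist term and ran from -0.115 to 0.0438 as each array was left out. For β-catenin-active minus FoxO1-deleted arrays it was -1.37 with no filter, -0.877 with a stricter filter, -1.0 over every kept probe set, -0.481 with array weights and -0.589 with a Xist term, and ran from -1.66 to -0.0333. In that comparison 12 members had an unadjusted p under 0.05 without FoxO1 deleted 1, against 961 of all 11357 genes. The number was 19 without FoxO1 deleted 2, against 1126 of all genes, and 2 without FoxO1 deleted 3, against 1032. With all arrays it was 1, against 912 of all genes.

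The score of FoxO1 deleted 3 was 2.61, 3.08 and 2.64 over all members with a stricter filter, median scaling and every kept probe set, against 2.96. Over type I members it was 2.48 with no filter, 2.15 with a stricter filter, 2.42 with median scaling and 2.00 over every kept probe set, and over type II members it was 3.87 with a stricter filter. In each of these settings the type II score stayed above the type I score. As each array was left out, the FoxO1-deleted minus wild-type difference ran from -0.015 to 2.19 for Rtp4, -0.773 to 0.638 for Rsad2, -0.138 to 1.59 for Xaf1, -0.095 to 1.49 for Ifit2, -0.33 to 2.59 for Igtp, -0.0175 to 2.79 for Gbp3, -0.353 to 2.13 for Psmb8 and -0.18 to 1.36 for Irf1, each turning below 0 without FoxO1 deleted 3. Rsad2 was also below 0 without wild type 3, without wild type 4 and, at -0.032, as the mean of its kept probe sets. Deviations from the group means were correlated between arrays of different genotypes. Same-numbered arrays correlated at -0.287 to 0.290 and differently numbered ones at -0.311 to 0.320. With so few arrays per genotype, these values cannot settle whether the numbers pair the samples. With the replicate number as a block the median differences were 1.09, -0.073 and -1.12. The wild-type pairs averaged above, 1 with 2 and 3 with 4, also differ in Xist signal, with 8.96 and 7.29 against 14.25 and 14.05. The labels do not say whether the arrays of a pair are independent, so there may be fewer independent wild types than 4. The 3 arrays per changed genotype, of which 1 FoxO1-deleted array differs from the other 2, also limit what these comparisons can show.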

Other observations

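The 50 genes with the widest gap between FoxO1 deleted 3 and its nearest other array show what else that array expressed. Of these 50, 23 are members (13 of type I and 10 of type II), 13 belong to the other pathway lists and 14 to no list. Named after their values were seen, the 14 include Ubd, which encodes a ubiquitin-like modifier, Ccl8, a chemokine, and Fcgr4, an immunoglobulin receptor of myeloid cells. Antigen presentation genes, also picked after their values were seen, of both MHC classes were high in that array as well. B2m, the light chain of MHC class I, had 14.75 on FoxO1 deleted 3 and 12.99 to 13.19 on the other 9 arrays. H2-Ab1, a class II chain, had 10.47 and 7.10 to 8.71, and Cd74, the class II invariant chain, had 11.51 and 7.86 to 9.15. Ifitm2 did not follow, with 13.04 on FoxO1 deleted 3 and 12.90 to 13.15 elsewhere, and Ifitm3 did, with 14.90 and 12.58 to 13.30.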
